A study of Mus musculus with 6 samples.

Results

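Organic ion carriers and ABC transporters of the liver were compared between TLR3-/- and TLR3wt mice. Their genes were taken as those whose symbol begins with Slco, Slc10a, Slc22a or Slc47a, the uptake side, or with Abcb, Abcc or Abcg, the export side. Of 71 such genes on the array, 38 gave a signal above the floor of the deposited values on at least 1 array, 22 of 46 on the uptake side and 16 of 25 on the export side. The other 33 genes, 24 and 9 of them, stood at the floor on all 6 arrays and gave no comparison. Measured members were 38 of 10347 genes in all.

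Liver RNA was taken from untreated mice at 3 months of age, 3 TLR3-/- and 3 TLR3wt animals, with 1 array per mouse. TLR3 senses double-stranded RNA inside endosomes. The sample labels name C57Bl/6 only for the TLR3wt mice, while the series title and design name it for the comparison as a whole. The mice were bred in house under specific-pathogen-free conditions, and how the TLR3-/- allele was made and whether the groups were littermates are not given in the sources used here. The RNA came from whole liver, so fewer cells of a type and less RNA per cell cannot be told apart.

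Hepatocytes take up bile acids, drugs and other organic ions from the blood across their sinusoidal membrane and release them, often after conjugation, into bile across the canalicular membrane. Sinusoidal uptake rests on the sodium-dependent bile acid carrier NTCP and on organic anion transporting polypeptides (OATPs). Canalicular release is driven by ATP through ABC pumps such as the bile salt export pump, and further ABC pumps of the sinusoidal membrane return substrates to the blood.

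Tlr3 itself lay above the floor of 5 (log2 RMA signal, the authors' normalised value of a probe set) on 0 of 6 arrays, so the genotype labels had no check on the array. Between 15081 and 15226 probe sets lay above the floor on each array, and arrays of a group correlated at 0.984 to 0.991, those of different groups at 0.980 to 0.988. On the second principal component (22.2% of the variance) TLR3wt replicate 3 stood apart at 17.6, against -14.5 and -11.1 for TLR3wt replicates 1 and 2. Values without that mouse are therefore given for several of the transporter genes it touched, but not for the related lists. Limma's Benjamini-Hochberg adjusted p of 0.05 was passed by 31 of 16639 probe sets with signal above the floor on any array, and by 0 of 35557 when the remaining ones were included (2018 at an unadjusted p under 0.05). With 3 arrays a group, small differences could be estimated only roughly.

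Differences between the genotypes were mostly small, and none of the 38 transporter genes passed the test, which 0.087% of all genes passed. An unadjusted p under 0.05 was found in 10.1% of all genes with TLR3-/- higher and in 5.56% with TLR3-/- lower. Uptake genes with unadjusted p under 0.05 were Slc47a1, Slc22a4 and Slco1b2, higher in TLR3-/- livers, and the bile acid carrier gene Slc10a2, lower. Export genes with unadjusted p under 0.05 were Abcg8, Abcg5, Abcc2 and Abcc6, higher, and Abcc4, lower. The main bile acid carriers of each membrane, Slc10a1 and Abcb11, differed by 0.09 and 0.06 (log2 difference, TLR3-/- minus TLR3wt), within the spread between mice.

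**Figure D1:**
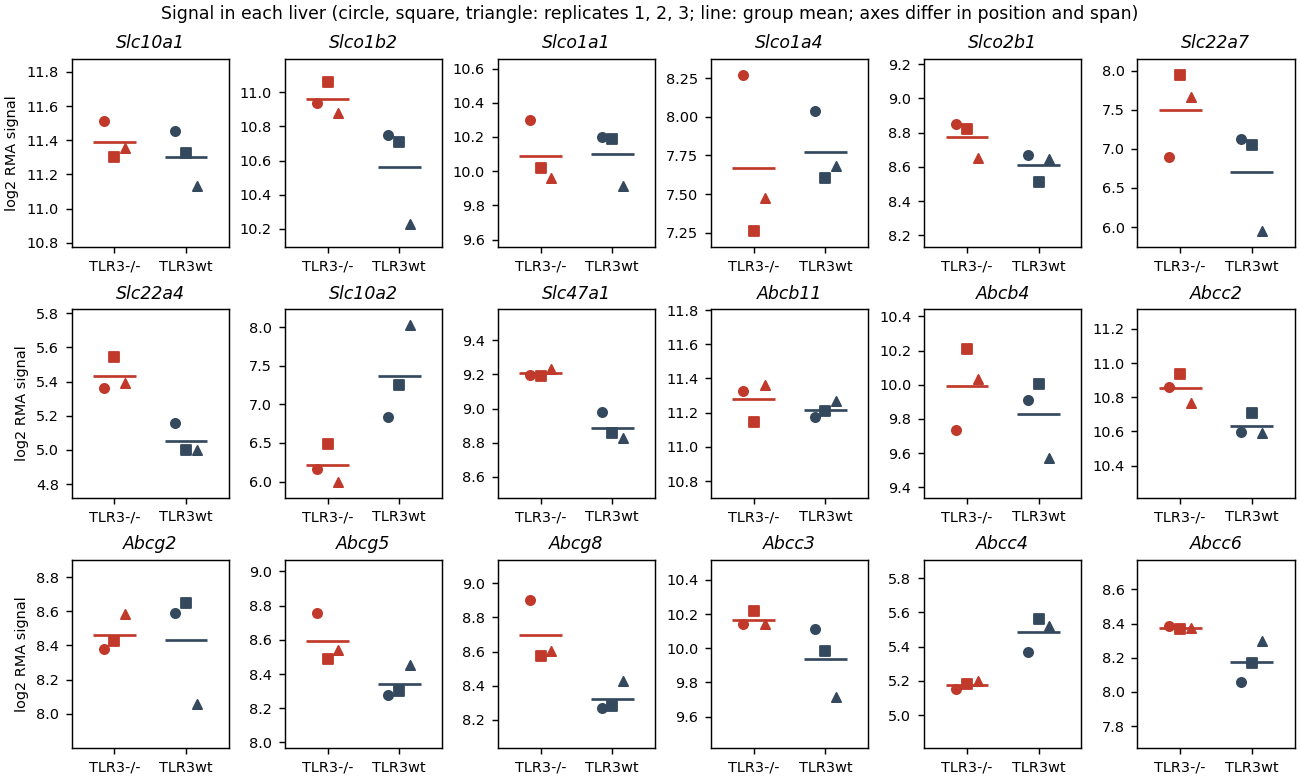
Log2 RMA signal in each TLR3-/- liver (left) and TLR3wt liver (right) of 18 transporter genes, with replicates 1, 2 and 3 as circles, squares and triangles, group means as lines, and vertical axes that differ in position and span. The groups are separate for Slc47a1, Slc22a4, Slc10a2, Slco1b2, Abcc2, Abcg5, Abcg8, Abcc3, Abcc4 and Abcc6 and overlap in the other panels.

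Sinusoidal uptake was carried by 6 measured genes, of which 4 had a higher and 2 a lower mean in TLR3-/- livers. Slc10a1 (probe set 10401289), which encodes NTCP, had 11.51, 11.30 and 11.36 in TLR3-/- livers, against 11.45, 11.33 and 11.13 in TLR3wt livers (log2 signal of replicates 1, 2 and 3, the scale and order of all levels that follow). The groups overlapped, and the log2 difference was 0.09 with a 95% interval of -0.16 to 0.33 (limma adjusted p = 0.749). Without TLR3wt replicate 3, its lowest liver, the difference was 0.00078.

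Slco1b2 (10542615) encodes the main OATP of mouse hepatocytes, a carrier of bile acids, bilirubin conjugates and drugs. Its signal was 10.94, 11.06 and 10.88 in TLR3-/- livers, against 10.75, 10.71 and 10.23 in TLR3wt livers. All TLR3-/- livers lay above all TLR3wt livers, and TLR3wt replicate 3 was the lowest of all. The log2 difference was 0.40 ± 0.15 (SE), a 1.32-fold higher signal (limma adjusted p = 0.304), and 0.23 without TLR3wt replicate 3.

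Slc22a7 (10451291) encodes OAT2, a carrier of organic anions such as nucleotides and prostaglandins, and was the most variable member between mice. It had 6.90, 7.95 and 7.66 in TLR3-/- livers, against 7.12, 7.04 and 5.94 in TLR3wt livers. The lowest TLR3-/- liver lay below 2 of the TLR3wt livers, and TLR3wt replicate 3 was more than 1 log2 unit below its group. The log2 difference was 0.80 ± 0.40 (SE; limma adjusted p = 0.416), and 0.42 without TLR3wt replicate 3.

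The other sinusoidal OATP genes differed less. Slco1a1 and Slco1a4 encode broad carriers of organic anions and steroid conjugates, and in mouse liver the first is known as male-predominant and the second as female-predominant. Slco1a1 (10548978) had 10.30, 10.02 and 9.96 in TLR3-/- livers, against 10.20, 10.19 and 9.91 in TLR3wt livers. The groups overlapped almost fully, with a log2 difference of -0.0089 and a 95% interval of -0.30 to 0.29 (limma adjusted p = 0.979), whose sign turned when any of 4 mice was left out. Slco1a4 (10548996) had 8.27, 7.26 and 7.47 in TLR3-/- livers, against 8.04, 7.60 and 7.68 in TLR3wt livers. TLR3-/- replicate 1 was the highest of all 6 and the other TLR3-/- livers the lowest, so the difference was -0.11 with all mice and -0.41 without TLR3-/- replicate 1 (limma adjusted p = 0.893 with all mice). Of 4 Y-linked genes looked up, 3 lay above the floor on all 6 arrays, and Xist lay above it on 0 arrays. Slco2b1 (10565819), an OATP of steroid sulfates and drugs, had 8.85, 8.82 and 8.65 in TLR3-/- livers, against 8.67, 8.51 and 8.65 in TLR3wt livers. Its groups overlapped at the edge, with a log2 difference of 0.16 ± 0.08 (SE; limma adjusted p = 0.400).

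Promoters are printed for 5 members that the results turn on, as RefSeq windows of 300 bases (GRCm38.p6, 250 before the annotated start and 50 from it, read 5′ to 3′ on the gene's strand). Of the 38 measured genes, 29 had such a window. For Slco1b2, on the plus strand at chr6:141629268-141629567, and for Slc10a2, on the minus strand at chr8:5105238-5105537, the capitals mark the 6 letters GTTAAT or their reverse complement, with which the site of the hepatocyte factor HNF1 begins. They are shown because both encode bile acid carriers whose groups did not overlap.
Slco1b2: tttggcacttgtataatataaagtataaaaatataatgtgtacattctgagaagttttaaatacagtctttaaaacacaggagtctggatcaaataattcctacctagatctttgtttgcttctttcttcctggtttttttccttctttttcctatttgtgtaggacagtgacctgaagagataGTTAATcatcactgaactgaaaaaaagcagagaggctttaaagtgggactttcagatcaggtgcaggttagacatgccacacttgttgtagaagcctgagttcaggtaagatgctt
Slc10a2: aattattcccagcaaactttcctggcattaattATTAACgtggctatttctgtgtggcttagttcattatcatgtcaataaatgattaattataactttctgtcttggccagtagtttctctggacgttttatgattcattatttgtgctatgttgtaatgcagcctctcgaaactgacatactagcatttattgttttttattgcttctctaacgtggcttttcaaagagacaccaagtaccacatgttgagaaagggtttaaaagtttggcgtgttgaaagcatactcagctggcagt
The motif was searched on both strands and stood at bases 185 to 190 of the Slco1b2 window and 34 to 39 of the Slc10a2 window. These were the 2 members with a match among the 29 with a window (6.9%), and 7.1% of all 32851 windows held it. The 2 shares were close, but members were counted once per gene over all its windows, and the background was counted per window. The same unlike units hold for the motifs below. Slco1b2 and Slc10a2 had opposite differences.

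Slc10a2 (10576901) showed the largest difference of any member. It encodes ASBT, the sodium-dependent bile acid carrier of apical membranes, known from the ileum and from bile duct cells. Its signal was 6.16, 6.48 and 6.00 in TLR3-/- livers, against 6.83, 7.25 and 8.03 in TLR3wt livers. All TLR3-/- livers lay below all TLR3wt livers, and TLR3wt replicate 3 was the highest. The log2 difference was -1.16 ± 0.31 (SE), a 2.23-fold lower signal (limma adjusted p = 0.196). It was -0.83 without TLR3wt replicate 3 and lay between -1.43 and -0.83 over the 6 fits that each left out 1 mouse. Of 7 bile duct markers, 5 were on the array under 1 symbol and 4 of these (Krt7, Krt19, Epcam and Cftr) stood at the floor on all arrays. The fifth, Sox9, had 5.56, 5.70 and 5.84 in TLR3-/- livers, against 5.13, 5.33 and 6.06 in TLR3wt livers. The summed linear signal of the 5 markers was 175 to 185 in TLR3-/- livers and 163 to 195 in TLR3wt livers, a spread that comes from Sox9 alone, since the markers at the floor add a constant. Their part in the Slc10a2 difference was not tested.

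Slc47a1 (10386683) had the smallest p of all members. It encodes MATE1, which despite its place among the Slc genes releases organic cations such as metformin and creatinine into bile and urine. Its signal was 9.20, 9.19 and 9.23 in TLR3-/- livers, against 8.98, 8.85 and 8.83 in TLR3wt livers. The TLR3-/- livers lay close together and above every TLR3wt liver. The log2 difference was 0.32 ± 0.06 (SE), a 1.25-fold higher signal (limma adjusted p = 0.138), and stayed between 0.29 and 0.37 whichever mouse was left out.

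Carnitine and organic cation carriers gave low signals. Slc22a4 (10385893), which encodes the ergothioneine carrier OCTN1, had 5.36, 5.54 and 5.39 in TLR3-/- livers, against 5.16, 5 and 5 in TLR3wt livers. Both TLR3wt values of 5 are the floor itself, so the log2 difference of 0.38 ± 0.08 (SE; limma adjusted p = 0.143) is understated by an unknown amount. Slc22a5 (10385872), which encodes the carnitine carrier OCTN2, had 6.10, 6.81 and 6.72 in TLR3-/- livers, against 6.37, 6.44 and 6.52 in TLR3wt livers. Its TLR3-/- livers lay on both sides of the TLR3wt livers (difference 0.10, limma adjusted p = 0.839).

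The remaining 12 uptake members had differences from -0.22 to 0.16, 8 of them above 0 and 4 below, with limma adjusted p of 0.433 and above. The lowest was Slco2a1 (10588263), which encodes the prostaglandin carrier PGT, known from endothelial cells, with 8.79, 8.66 and 8.84 in TLR3-/- livers against 8.74, 8.97 and 9.23 in TLR3wt livers. These groups overlapped, and the difference of -0.22 was -0.09 without TLR3wt replicate 3, the highest liver, when Slco3a1 was lower at -0.12. Of 10 liver endothelial markers 5 had a higher and 5 a lower mean (median log2 difference -0.019). The groups did not overlap for Lyve1 and Pecam1, both lower (-0.56 and -0.24), as for 7.62% of all genes. The list's summed linear signal was 1680 to 2036 in TLR3-/- livers and 1652 to 2145 in TLR3wt livers. Slc22a30 (10465764), one of a cluster of near-identical genes whose probes may bind each other's transcripts, had 11.03, 11.07 and 11.01 in TLR3-/- livers, against 10.96, 11.00 and 10.92 in TLR3wt livers. Its groups did not overlap although the difference was 0.08. A further probe set that the annotation assigns to 3 Slc22a genes at once, and which is not counted among the members, had a difference of 0.18 with 10.24, 10.30 and 10.20 in TLR3-/- livers against 10.04, 10.10 and 10.04 in TLR3wt livers. Slc22a2, Slc22a6 and Slc22a8, known as renal carriers, stood at the floor in all livers.

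**Figure D2:**
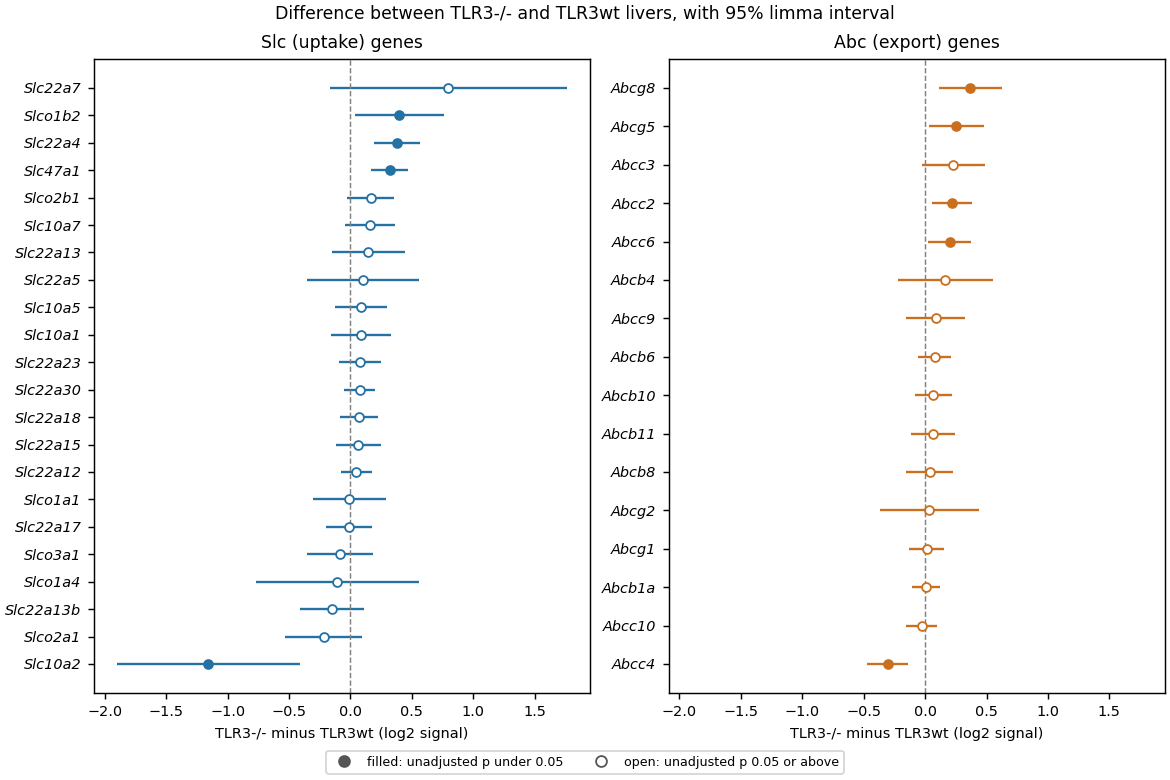
Log2 difference of each of the 38 measured transporter genes, TLR3-/- minus TLR3wt, with its 95% limma interval. Uptake genes are on the left and export genes on the right, and filled points have an unadjusted p under 0.05 (4 and 5 genes). Slc10a2 at -1.16 and Slc22a7 at 0.80 are the extremes, and Abcg8 at 0.37 is the highest of the export side.

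Canalicular ABC genes had higher means in TLR3-/- livers for 6 of 6 members apart from Abcb1a, which was measured only through 1 TLR3-/- liver. A higher mean was found in 60.9% of all genes. Of the 6 members, 3 had an unadjusted p under 0.05, against 10.1% of all genes with TLR3-/- higher, and 0 passed limma's adjusted p. The signs of Abcb1a and Abcg2 turned under other scalings or array weights, and that of Abcg2 also without TLR3wt replicate 3 (-0.15). Abcb11 (10483410), the bile salt export pump, had 11.33, 11.15 and 11.36 in TLR3-/- livers, against 11.18, 11.21 and 11.27 in TLR3wt livers. The TLR3-/- livers lay on both sides of the TLR3wt livers, and the 95% interval of the difference, -0.12 to 0.24, included 0 (limma adjusted p = 0.748). Its difference of 0.06 was 0.13 without TLR3-/- replicate 2 and 0.02 without TLR3-/- replicate 3. Abcb4 (10519578), which moves phosphatidylcholine into bile, had 9.74, 10.21 and 10.04 in TLR3-/- livers, against 9.91, 10.01 and 9.57 in TLR3wt livers. The groups overlapped (difference 0.16, limma adjusted p = 0.694), and the difference was 0.036 without TLR3wt replicate 3.

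Abcg5 and Abcg8 encode the partners of the sterol exporter, which sends cholesterol and plant sterols into bile and works only as a pair. Abcg5 (10453318) had 8.76, 8.49 and 8.54 in TLR3-/- livers, against 8.28, 8.30 and 8.45 in TLR3wt livers. Abcg8 (10447239) had 8.90, 8.57 and 8.61 in TLR3-/- livers, against 8.27, 8.28 and 8.43 in TLR3wt livers. For both genes the groups did not overlap, TLR3-/- replicate 1 was the highest liver and TLR3wt replicate 3 the highest of its group. The log2 difference was 0.25 ± 0.09 (SE) for Abcg5 and 0.37 ± 0.10 (SE) for Abcg8, or 1.19-fold and 1.29-fold higher signal (limma adjusted p = 0.295 and 0.212). Without TLR3-/- replicate 1 the differences were 0.17 and 0.26.

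The 2 genes lie head to head on chromosome 17. In the windows used here their annotated starts lie 110 bases apart, so these windows share 209 bases and are shown once. The Abcg8 window, 1 of 2 annotated for this gene, is on the plus strand at chr17:84682871-84683170. It is printed because TLR3-/- replicate 1 was the highest liver in both genes and TLR3wt replicate 3 the highest of its group. Its capitals mark the reverse complement of AGATAAG, the motif of GATA factors.
Abcg8: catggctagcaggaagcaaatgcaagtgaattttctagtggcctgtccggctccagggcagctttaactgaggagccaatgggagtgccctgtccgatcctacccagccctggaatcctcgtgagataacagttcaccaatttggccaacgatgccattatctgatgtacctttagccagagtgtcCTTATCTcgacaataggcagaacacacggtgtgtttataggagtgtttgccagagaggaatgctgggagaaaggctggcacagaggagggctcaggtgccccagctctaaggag
The match lies at bases 187 to 193, between the 2 starts, and belongs to the Abcg5 window and the printed Abcg8 window. Among the 29 members with a window 4 held the motif (13.8%, Abcg5, Abcg8, Slc22a13 and Slc22a18), against 3.04% of all windows, and the Abcg5 and Abcg8 matches are the same letters, counted once for each gene.

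Abcc2 (10463308), which encodes MRP2, the canalicular pump of bilirubin glucuronides and glutathione conjugates, had 10.86, 10.93 and 10.77 in TLR3-/- livers, against 10.60, 10.71 and 10.59 in TLR3wt livers. All TLR3-/- livers lay above all TLR3wt livers, with a log2 difference of 0.22 ± 0.07 (SE), 1.16-fold (limma adjusted p = 0.240). Abcg2 (10538640), the exporter of urate and sulfate conjugates BCRP, had 8.38, 8.43 and 8.58 in TLR3-/- livers, against 8.59, 8.65 and 8.06 in TLR3wt livers. TLR3wt replicate 3 alone lay below the TLR3-/- livers, so that the difference was 0.033 with all mice and -0.15 without it (limma adjusted p = 0.948 with all mice). Abcb1a (10519527), a drug pump also called P-glycoprotein, was at the floor in 5 of 6 livers and had 5.02 in TLR3-/- replicate 1, so no fold is given, and its close copy Abcb1b was at the floor in all 6.

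Sinusoidal ABC genes went both ways. Abcc3 (10389894), which encodes MRP3, a basolateral pump of glucuronides, had 10.14, 10.22 and 10.14 in TLR3-/- livers, against 10.11, 9.99 and 9.72 in TLR3wt livers. The groups were only narrowly apart, and the log2 difference was 0.23 ± 0.11 (SE; limma adjusted p = 0.387), or 0.12 without TLR3wt replicate 3. Abcc6 (10563447), which mediates release of ATP from hepatocytes, had 8.39, 8.37 and 8.37 in TLR3-/- livers, against 8.06, 8.17 and 8.30 in TLR3wt livers. The TLR3-/- livers lay close together and above all TLR3wt livers, with a difference of 0.20 ± 0.07 (SE; limma adjusted p = 0.289).

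Abcc4 (10422280) was the 1 export gene with an unadjusted p under 0.05 that was lower. It encodes MRP4, a basolateral pump that sends bile acids with glutathione and cyclic nucleotides out of the hepatocyte. Its signal was 5.15, 5.18 and 5.20 in TLR3-/- livers, against 5.37, 5.56 and 5.52 in TLR3wt livers. Every TLR3-/- liver lay below every TLR3wt liver, but all values lay close to the floor. The log2 difference was -0.31 ± 0.07 (SE), a 1.24-fold lower signal (limma adjusted p = 0.160), and lay between -0.36 and -0.27 whichever mouse was left out.

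Abcc2 and Abcc4 differed in opposite directions, and both are known targets of the stress factor NRF2, so their promoters are shown together. The Abcc2 window is on the plus strand at chr19:43782058-43782357, and the Abcc4 window, 1 of 2 annotated for this gene, is on the minus strand at chr14:118676882-118677181. Capitals mark TGACNNNGC, the core of the antioxidant response element to which NRF2 binds.
Abcc2: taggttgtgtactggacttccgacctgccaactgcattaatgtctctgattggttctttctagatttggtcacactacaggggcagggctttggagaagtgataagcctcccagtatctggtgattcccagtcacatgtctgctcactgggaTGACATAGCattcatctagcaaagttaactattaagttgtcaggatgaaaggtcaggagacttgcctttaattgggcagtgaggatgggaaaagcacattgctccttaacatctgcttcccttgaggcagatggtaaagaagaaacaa
Abcc4: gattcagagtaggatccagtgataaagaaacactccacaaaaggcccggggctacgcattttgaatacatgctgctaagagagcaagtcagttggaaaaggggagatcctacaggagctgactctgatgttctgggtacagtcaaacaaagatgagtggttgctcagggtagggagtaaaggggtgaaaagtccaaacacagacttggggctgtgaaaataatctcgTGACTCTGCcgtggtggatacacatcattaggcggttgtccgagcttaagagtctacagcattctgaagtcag
The match stood at bases 153 to 161 of the Abcc2 window and 228 to 236 of the Abcc4 window. It was found on either strand in 4 of 29 members (13.8%, with Abcb1a and Abcc10), against 12.4% of all windows.

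Export members of organelles and other tissues came last. Abcb6, Abcb8 and Abcb10, whose products are half-transporters known from mitochondria and, for Abcb6, also from other membranes, had differences of 0.08, 0.04 and 0.07. Together with Abcc9, a regulatory subunit of potassium channels, Abcc10 and the cholesterol exporter gene Abcg1, these 6 genes had differences from -0.03 to 0.09, 5 above 0 and 1 below, with limma adjusted p of 0.574 and above. Their groups overlapped in every case.

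**Figure D3:**
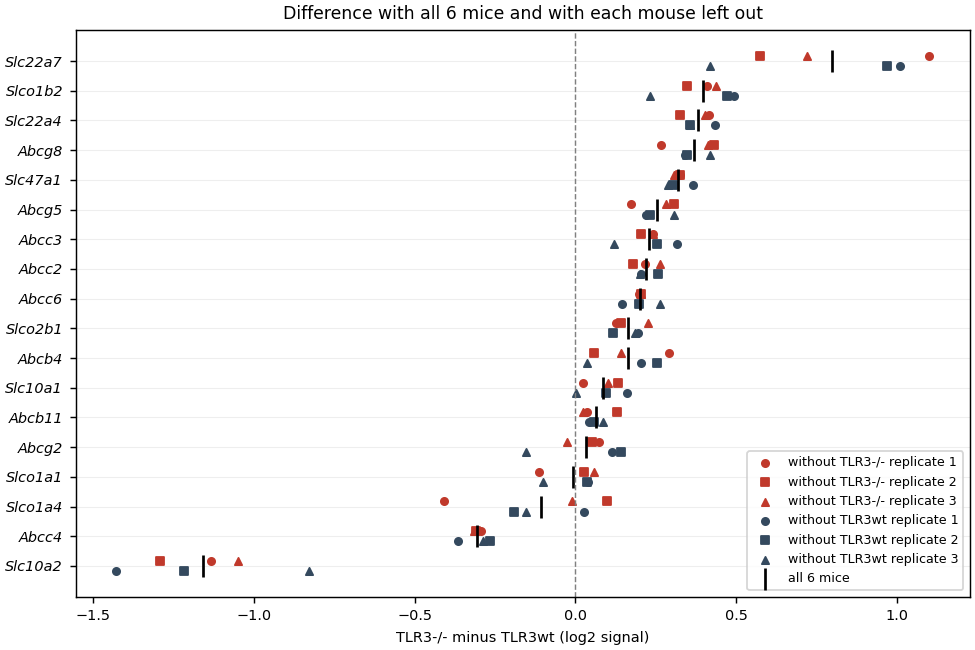
Log2 difference, TLR3-/- minus TLR3wt, with all 6 mice (black bars) and with each mouse left out in turn (red for TLR3-/- mice, dark blue for TLR3wt mice, and circle, square and triangle for replicates 1, 2 and 3). Slc47a1 stays between 0.29 and 0.37 and Abcc4 between -0.36 and -0.27, whereas Slc22a7 runs from 0.42 to 1.10 and Abcg2, Slco1a1 and Slco1a4 lie on both sides of 0.

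By count, 0 of 22 uptake and 0 of 16 export members passed limma's adjusted p of 0.05, as did 9 of 10347 genes in all (0.087%). At an unadjusted p under 0.05 there were 3 uptake members (13.6%) and 4 export members (25%) higher, against 10.1% of all genes, and 1 (4.55%) and 1 (6.25%) lower, against 5.56% of all genes. The export count of 5 was 3 without TLR3-/- replicate 1, without TLR3-/- replicate 2, without TLR3wt replicate 1 and without TLR3wt replicate 2, and 4 without either of the others. Groups did not overlap with TLR3-/- higher in 5 uptake members (22.7%) and 5 export members (31.2%), against 15.1% of all genes, and with TLR3-/- lower in 1 and 1, against 7.62%. The lower shares are near those of all genes, and the higher ones rest on few genes and were not tested as a group.

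A higher mean in TLR3-/- livers was seen in 15 of 22 uptake members, 14 of 16 export members (13 of 15 without Abcb1a) and 60.9% of all genes. The median log2 difference was 0.078 over uptake members, 0.072 over export members and 0.033 over all genes, and 0.047 and 0.040 over the members when arrays were centred. When each array was centred on its median, or quantile normalised again, 15 uptake and 12 export members were higher and 7 and 4 lower. The median and the share with a higher mean over all genes are not given for these settings. Centring moves the differences of all genes by the same amount, so the centred values cannot be set against 0.033 or 60.9%. The median deviation of the uptake members from their TLR3wt means was 0.16, 0.042 and 0.050 in TLR3-/- livers, against 0.0001, -0.013 and 0.012 in TLR3wt livers. For the export members it was 0.10, 0.043 and 0.13 in TLR3-/- livers, against -0.017, 0.022 and -0.00066 in TLR3wt livers. The TLR3-/- livers lay above the TLR3wt livers in both medians. Deviations were taken from the TLR3wt means, which keeps the TLR3wt medians near 0. The same medians over all genes are not given, so the separation cannot be read as particular to the members.

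Related transport genes were counted in the same way. Over all genes 60.9% had a higher mean (median 0.033). At an unadjusted p under 0.05, 10.1% of all genes were higher and 5.56% lower. The lists were not tested as a group. Of 16 measured ABC genes of the families Abca, Abcd, Abce and Abcf, 9 had a higher and 7 a lower mean (median 0.041), with 2 higher and 0 lower at an unadjusted p under 0.05 and 0 passing limma's adjusted p. Their differences ran from -1.15 to 0.24, the lowest being that of Abcd2, a peroxisomal fatty acid transporter gene named after its values were seen. Its groups overlapped, and TLR3wt replicate 3 was its highest liver at 8.03. Of 16 canalicular partners and scaffolds 13 were higher and 3 lower (median 0.065), with 1 and 0 at an unadjusted p under 0.05 and 0 passing. Rdx, whose product radixin anchors MRP2 in the canalicular membrane, had 9.85, 9.74 and 9.73 in TLR3-/- livers, against 9.56, 9.44 and 9.56 in TLR3wt livers. Its groups did not overlap (difference 0.25, limma adjusted p = 0.186). The fatty acid carrier gene Slc27a2, the copper pump gene Atp7b and the urate carrier gene Slc2a9 had differences of 0.21, 0.29 and 0.17.

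Among 22 measured regulators of hepatic transporter genes 16 had a higher and 6 a lower mean (median 0.12), with 4 and 2 at an unadjusted p under 0.05 and 0 passing limma's adjusted p. The shares over all genes were 60.9% with a higher mean (median 0.033), and 10.1% higher and 5.56% lower at that unadjusted p. The regulators were not tested as a group. Nr1i3, which encodes the xenobiotic receptor CAR, had 9.35, 9.56 and 9.29 in TLR3-/- livers, against 8.75, 8.94 and 8.74 in TLR3wt livers. The groups were well apart, with a difference of 0.59 ± 0.10 (SE; limma adjusted p = 0.111). Nr0b2, encoding the bile acid-induced repressor SHP, and Ahr, encoding the dioxin receptor, had differences of 0.51 and 0.37, and Cebpb, a factor of acute inflammation, had -0.71 (limma adjusted p = 0.220, 0.203 and 0.232).

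Cell composition was followed with marker lists. Over all genes, groups did not overlap with TLR3-/- higher in 15.1% and with TLR3-/- lower in 7.62%. Of 12 macrophage and Kupffer cell markers 11 had a lower mean in TLR3-/- livers, all 11 without overlap between the groups (median log2 difference -0.87), and their summed linear signal was 1091 to 1681 in TLR3-/- livers and 2097 to 2868 in TLR3wt livers. Clec4f, Cd5l and Vsig4 had differences of -0.69, -0.73 and -0.88. Hepatocyte markers, 9 measured, had 3 higher and 6 lower means, 3 of the lower ones without overlap and 1 of the higher ones (median -0.014), and a summed linear signal of 46010 to 47896 in TLR3-/- livers and 46879 to 48722 in TLR3wt livers. Of 8 measured stellate cell markers 4 were higher and 4 lower (median -0.069). The 3 brightest, Dcn, Reln and Colec11, were higher with overlap between the groups (0.17, 0.17 and 0.06). Col3a1, Col1a1 and Col1a2 were lower without overlap (-0.55, -0.49 and -0.28). TLR3wt replicate 3 was the highest liver for each of these collagen genes (7.14, 6.92 and 6.91). Only 2 erythroid markers were measured (median -0.28), and 8 of 9 lymphocyte markers on the array stood at the floor on all arrays. The part of these cell types in the transporter differences was not tested.

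**Figure D4:**
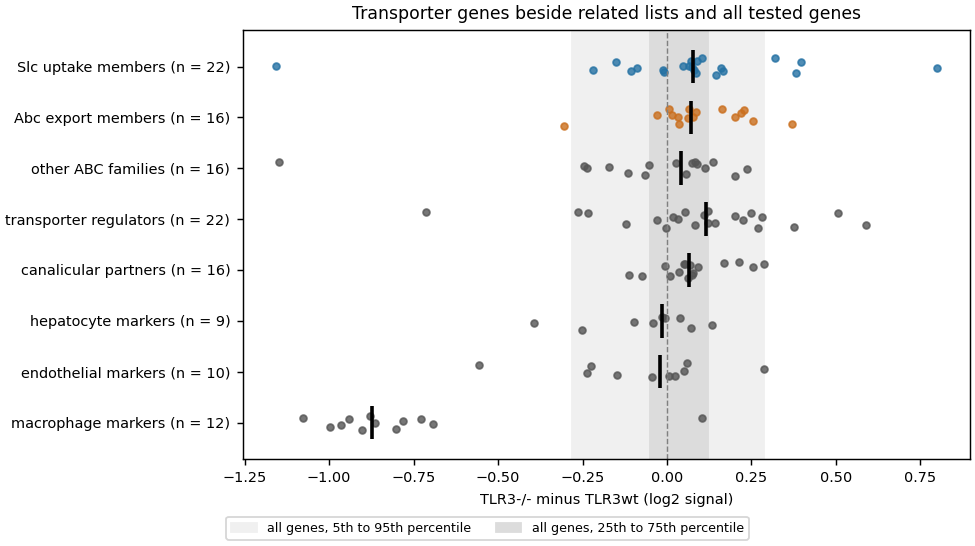
Log2 difference, TLR3-/- minus TLR3wt, of every measured gene of the uptake and export members and of related lists (points), with the list median (black bars). Grey bands span the 5th to 95th (-0.28 to 0.29) and the 25th to 75th (-0.05 to 0.12) percentile of all tested genes. The bands describe single genes and are no measure for the list medians, which are 0.078 for uptake members, 0.072 for export members and -0.87 for macrophage markers.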

How the data were processed

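Liver RNA of 3 TLR3-/- and 3 TLR3wt mice was measured on 1 array each, with groups taken from the sample titles. Per the submitters' processing notes, the authors used Affymetrix Expression Console, and the deposited log2 values are RMA signals. The lowest value of each array is exactly 5, a floor held by 57.2% to 57.6% of its values and of unstated origin.

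Gene symbols came from the array annotation (21789 of 35557 probe sets with 1 symbol, 1621 with several, 12147 with none). Of the first, 99.6% matched the RefSeq table of GRCm38.p6, the source of the promoters. The probe set with the highest mean stood for a gene.

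The genotypes were tested in limma 3.58.1 (R 4.3.3, two-sided, adjusted over 16639 probe sets, threshold 0.05) without the 18918 that never exceeded the floor. The members and lists were chosen with earlier results of these data known. Named were known hepatocyte transporters, members with an unadjusted p under 0.05, the 4 largest differences of each side, up to 4 genes by p of 2 related lists and up to 3 bright markers per cell type. Slc22a5, Slco2a1, Slc22a12, Slc22a13b, Slc22a30, Abcd2, the markers Lyve1, Pecam1, Col3a1, Col1a1 and Col1a2, Slco3a1 and the 6 remaining export genes were named after their values were seen. Alternatives covered filters, normalisation, array weights, a replicate block and each mouse left out. On simulated data for this comparison over 16639 probe sets, 52.2%, 82.1% and 95.5% of changes of 0.5, 1 and 2 were recovered (200 changed, 8 false among 161 calls). The changed probe sets were drawn only from those with a mean above 6, so these rates do not cover members near the floor or smaller changes.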

Additional observations from a re-analysis of the deposited data

How the results depend on the processing

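No uptake or export member, transporter regulator, canalicular partner or other ABC gene passed limma's adjusted p under any alternative that was run. The count over all probe sets, 31 as reported, was 0 with the floor probe sets included (2018 at an unadjusted p under 0.05), 18 when every array had to exceed the floor, 1 with 1-symbol probe sets, 3 with identical probe sets entered once, 9 after quantile normalisation again, 14 after centring and 4 with the replicate block. It was 0 to 13 over the fits without 1 mouse (13 without TLR3wt replicate 3, 1 without TLR3-/- replicate 1 or 2, 0 without the others). The causes were not tested. The export count at an unadjusted p under 0.05, 5 as reported, was 3 after quantile normalisation again, after centring and with the replicate block, and 3 to 4 without 1 mouse. The export median was 0.036 after quantile normalisation again and 0.046 to 0.10 without 1 mouse, and the uptake median was 0.050 to 0.096 without 1 mouse. With only members whose mean lay above 6, a choice made after seeing the data, 10 of 14 uptake and 13 of 13 export members had a higher mean. That cut left out Abcc4 and Abcc10, the only export members with a lower mean, so the export count follows from the cut. A higher mean was found in 60.9% of all genes, and the share among genes above 6 is not given. Signs turned for Abcg2 (-0.0041 after quantile normalisation again, -0.026 with array weights, -0.15 to 0.14 without 1 mouse), for Abcb1a (-0.026 after centring), for Slco1a1 (-0.11 to 0.058 without 1 mouse) and for Slco1a4 (-0.41 to 0.099 without 1 mouse). Groups share replicate numbers in the titles, but same-numbered mice did not deviate together (correlations 0.048, -0.012 and -0.063) and 0 of 3 matched best with their own number, so the numbers were not taken as pairs. Signal near the floor limits Slc22a4, Abcc4 and Abcb1a, and low uptake members such as Slc22a12 and Slc22a13b. Slc22a12, counted among the 5 uptake members higher without overlap, had values of 5.12 to 5.24 and a difference of 0.048.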
